A study of Mus musculus with 6 samples.

Results

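The proteasome genes of MLL-AF9 leukemia-initiating cells (LICs) were followed across 6 RNA-seq libraries, 3 labelled Asic3-null and 3 labelled WT. The members were the rows of the deposited table whose mouse symbol starts with Psma, Psmb, Psmc, Psmd, Psmf or Psmg followed by a digit, together with Psme3, Psme4 and Pomp. There were 48 of them among 27179 genes. Psma8 had been singled out because its reads fell in the libraries labelled WT only, so its values are given as a description without a test. Every other member was taken in by its name.

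Both groups came from C57BL/6 mice given as 8 weeks old. In this model, retrovirus carrying MLL-AF9 and YFP was put into lineage-negative fetal liver cells of Asic3-/- or Asic3+/+ origin, which were then grown in lethally irradiated C57BL/6 recipients, and YFP+Mac-1+c-Kit+ LICs were sorted from bone marrow. Both groups therefore carry MLL-AF9, and they differ by label in Asic3, an acid-sensing ion channel. Whether the 3 libraries of a group came from separate recipients was not given in the sources used here, so p-values measure the spread between these libraries only.

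Levels are RPKM, reads per kilobase of gene scaled to the library total, which allow genes to be compared per unit of length. Each library held between 1947168 and 2381861 reads, recovered from the steps between low values. The label check did not hold for the targeted gene: under the Asic3-null label Asic3 had 41, 19 and 30 reads, and under the WT label 5, 7 and 2. The Y chromosome genes Eif2s3y, Ddx3y, Kdm5d and Uty were without a read under the Asic3-null label and summed to 81.4 to 118 RPKM under WT, while Xist was at 46.5 to 71.9 RPKM against 0.0236 to 0.0573 RPKM. Genotype label and sex of the cells therefore cannot be told apart in any comparison. The sorted identity was checked on Itgam, which encodes a chain of Mac-1, at 12.3 to 16.9 RPKM under the Asic3-null label and 55.1 to 89.5 RPKM under WT, and on Kit, at 14.4 to 20.4 and 8.97 to 15.3 RPKM. Of the 6 sorted-cell genes, limma called Itgam lower and Meis1 higher under the Asic3-null label (21.7 to 35.3 against 13.99 to 14.9 RPKM, adjusted p = 0.037), beside 3.35% of all tested genes called. Hoxa9 (42.3 to 67.1 against 73.5 to 87.8 RPKM, adjusted p = 0.151), Kit, Mpo and Cd34 were not called.

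The proteasome is the protease that degrades proteins tagged with ubiquitin. Its 20S core is a barrel of outer α rings and inner β rings, and the β subunits Psmb5, Psmb6 and Psmb7 carry the active sites. Immune cells and interferon-treated cells replace these by the immunosubunits Psmb8, Psmb9 and Psmb10, developing sperm cells use Psma8 (α4s) in the place of Psma7 (α4), and the thymic cortex uses Psmb11. The 19S regulatory particle, with a base of ATPases and a lid, binds, unfolds and deubiquitinates substrates and feeds them into the core.

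Psma8 was read in every library labelled WT and in none labelled Asic3-null. Its level was 19.7, 18.2 and 18.7 RPKM in WT replicates 1 to 3, from 70, 60 and 75 reads. It was listed at 0 in the 3 libraries labelled Asic3-null. The WT libraries lay close together, each inside the 95% Poisson interval of the others (15.3 to 24.8, 13.9 to 23.4 and 14.7 to 23.5 RPKM), and the groups did not overlap. At the WT level, 225 reads would have been expected over the libraries labelled Asic3-null. Taking 3 reads over the whole group as the limit that a count of 0 allows, Psma8 was at least 75.0-fold lower there. Its log2 fold change on log2(RPKM + 1) was -4.31, which understates the difference of a gene at 0. Its WT mean of 18.9 ± 0.742 RPKM (SD, n = 3) lay next to those of Psmd10 (18.8 RPKM) and Psma5 (19.4 RPKM), low among the core subunits.

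**Figure D1:**
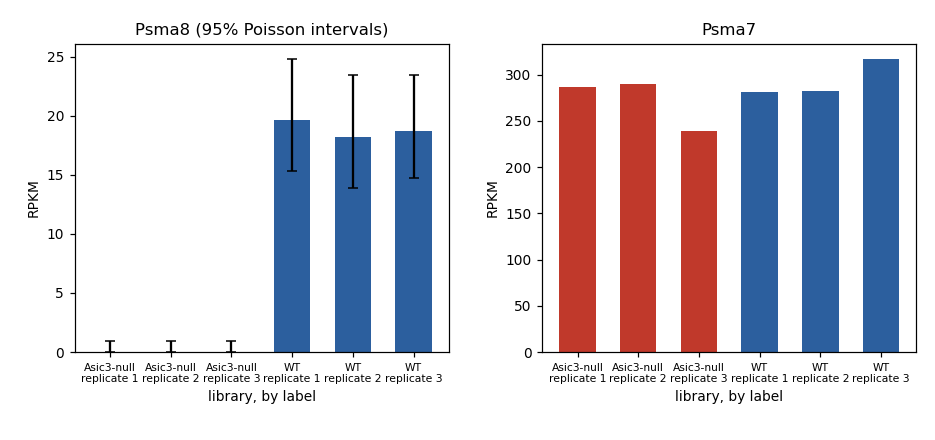
RPKM of Psma8 (left, bars with 95% Poisson intervals of the reads) and of Psma7 (right, bars) in each library, red for the label Asic3-null and blue for WT, on axes of different height. Psma8 stands at 18.2 to 19.7 RPKM in WT and at 0 in the libraries labelled Asic3-null, whereas Psma7 lies between 239 and 317 RPKM in both groups.

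Psma7, the α4 subunit of the ordinary core, was at 287, 290.2 and 239 RPKM under the Asic3-null label and at 281, 282 and 317 RPKM in WT. The groups overlapped, and the log2 fold change of -0.11 (SE 0.12, 95% interval -0.39 to 0.17) did not pass limma's test (adjusted p = 0.702). Psma8 made up 6.53%, 6.06% and 5.57% of the summed RPKM of Psma7 and Psma8 in the WT libraries, a mean of 6.05% ± 0.484 (SD, n = 3). By reads it was 11.8%, 11.0% and 10.2%, with exact 95% binomial intervals of 9.35% to 14.7%, 8.52% to 13.97% and 8.09% to 12.6%, which cover counting error only. The share by RPKM is lower because the Psma8 gene model, at 1693 bases, is longer than that of Psma7, at 881. In the libraries labelled Asic3-null 0 of 1688 reads on the pair were on Psma8, which allows a share of up to 0.178%. The α4 position as a whole, Psma7 plus Psma8, summed to 287, 290.2 and 239 RPKM under the Asic3-null label and to 301, 300.3 and 336 RPKM in WT, so the groups did not overlap for the sum while they did for Psma7. No test is given for the sum, which holds the gene chosen on these values.

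The coding sequences of the pair, taken from the reference transcripts, measure 747 bases in Psma7 and 753 in Psma8 and are identical at 559 of 747 aligned bases (74.8%). The longest identical run is 17 bases.

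Psma8 (Entrez 73677) lies on chromosome 18 at 14706135 to 14762301 in GRCm38, and the genes beside it did not share its pattern. Ss18, 21.7 kb away on the side of lower coordinates, was at 22.9, 23.9 and 23.0 RPKM under the Asic3-null label and 26.3, 24.2 and 24.5 RPKM in WT, a log2 fold change of -0.10 (adjusted p = 0.765, limma) with no overlap. Taf4b, 20.9 kb away on the other side, and Kctd1, 206 kb away, gave log2 fold changes of 0.16 and -0.11 (adjusted p = 0.803 and 0.840), and 8430422H06Rik had no read. Over the whole table, 92 genes had no read under the Asic3-null label and a WT mean of at least 1 RPKM, and Psma8 was the third of them by that mean, after the Y-linked Eif2s3y (68.3 RPKM) and Ddx3y (20.1 RPKM). The next 7 by mean RPKM rested on few recovered reads or on 1 library. Snord42a had 2, 2 and 0 recovered reads in the WT libraries, Dlk1 had 2, 373 and 5, and Mir147 had 0, 2 and 2. Igkj2, AF357359, Ighj2 and Igkj1 had a recovered count of at most 1 in a library. Recovered counts are the smallest that fit, so those of Igkj2 and AF357359, each read in WT replicate 2 only, are minimum values. With at least 10 recovered reads in every WT library, 6 genes were left. They were Eif2s3y, Ddx3y, Kdm5d, Uty, Psma8 and 1700030C10Rik, whose WT reads were 10, 14 and 15. The reverse pattern, at least 10 reads in each library labelled Asic3-null and none in WT, was found for 1 gene, the X-linked Maoa.

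Psma8 is known from the testis, so male germ line genes were read beside it. Of 15 such genes 9 had no read in any library, among them Sycp1, Stra8, Spo11, Ddx4 and Dazl. Only Sycp3 and Dmc1 had a mean of at least 1 RPKM, and neither was called, beside 3.35% of all tested genes (log2 fold changes of -0.56 and 0.20, adjusted p = 0.533 and 0.536, limma). The list summed to 33.0 to 34.1 RPKM under the Asic3-null label and 25.6 to 33.5 RPKM in WT, almost all of it Dmc1. Genes of other blood cells were read in the same way. Of 12 neutrophil granule and maturation genes, 11 could be tested. All 11 were called lower under the Asic3-null label, beside 2.82% of all tested genes. The 12 summed to 345 to 533 RPKM under the Asic3-null label against 4446 to 5424 RPKM in WT. Ly6g had a recovered minimum of 1 read in all. The 8 erythroid genes in the table, with Slc4a1 at 0, summed to 0.972 to 2.41 RPKM against 3.07 to 10.8 RPKM, from 4 to 6 reads a library against 7 to 17, and the 1 of them that could be tested was not called. T cell genes, with Cd3e, Cd4 and Cd8a at 0, summed to 1.502 to 4.55 and 1.83 to 3.96 RPKM, and B cell genes, with Ms4a1 at 0, to 37.4 to 47.8 and 43.4 to 50.5 RPKM, nearly all Cd79b. The part of the maturation and erythroid genes in the Psma8 difference was not tested, and in bulk RNA fewer cells with Psma8 and less Psma8 RNA per cell cannot be told apart.

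Apart from Psma8, the proteasome genes differed little between the groups. Of the other 47 members, 46 had a mean of at least 1 RPKM and were tested, and 0 were called higher or lower by limma at an adjusted p under 0.05, where 3.35% of the 12037 tested genes were called (0.523% higher, 2.82% lower). At an unadjusted p under 0.05 there were 3 members, all higher under the Asic3-null label, beside 15.9% of all tested genes (6.43% in that direction). A test on recovered reads with limma-voom also called 0. The log2 fold changes ran from -0.20 to 0.62 with a median of 0.13, where the median of all tested genes was 0.03, and 37 of 46 (80.4%) lay above 0 beside 54.5% of all tested genes. The 95% interval of each of the 46 lay within 1 log2 unit of 0, between -0.62 and 1.00. The groups did not overlap for 4 members (8.70%), all higher under the Asic3-null label, where 22.6% of tested genes did not overlap and 11.2% did so in that direction. The excess of the members' median over that of all tested genes rested on single libraries: without WT replicate 1 both medians were 0.05, and without Asic3-null replicate 2 they were 0.06 and 0.04, and 18 of the 46 members changed sign under at least 1 alternative.

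**Figure D2:**
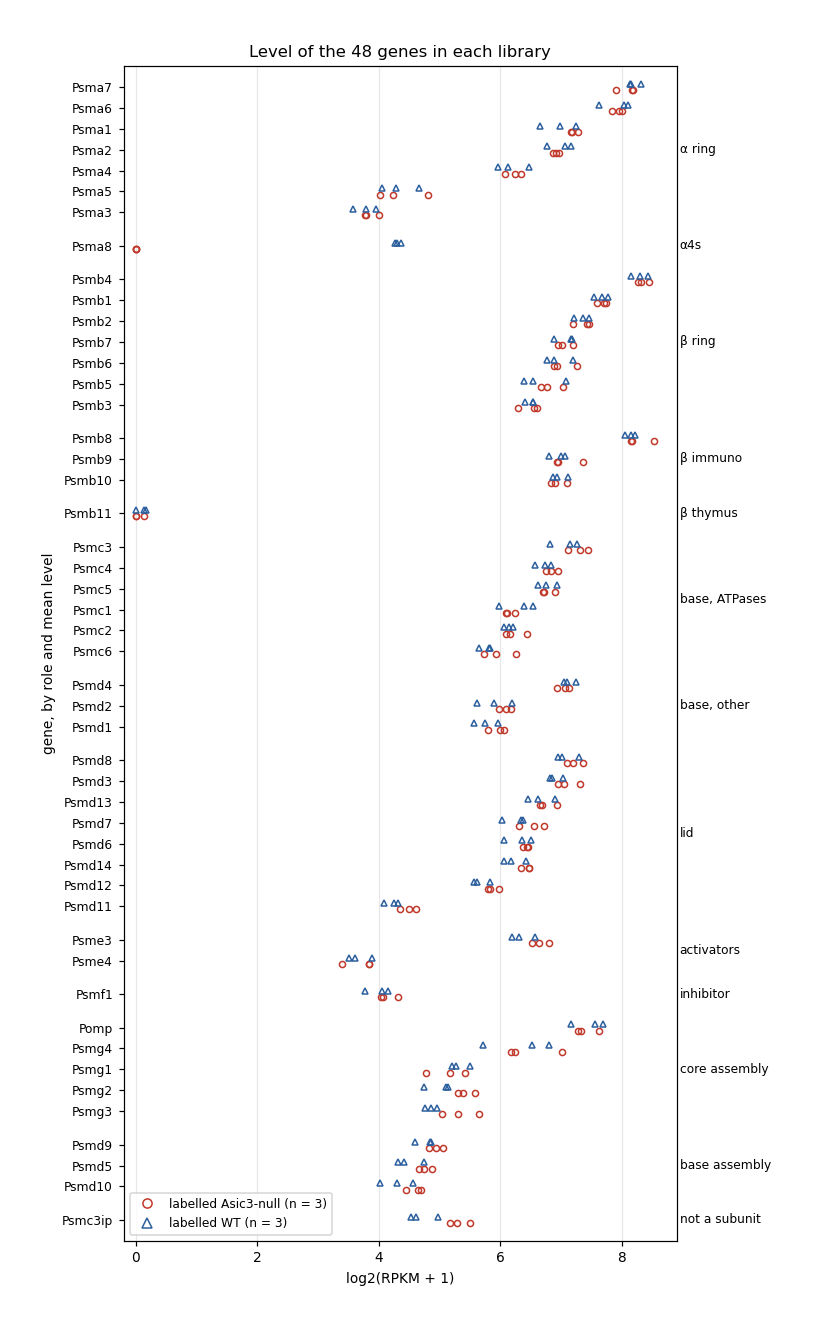
Level of the 48 genes on log2(RPKM + 1), grouped by role and ordered by mean, with 1 circle per library labelled Asic3-null and 1 triangle per library labelled WT. The groups lie on top of each other for most members and stand apart for Psma8, where the circles are at 0.

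**Figure D3:**
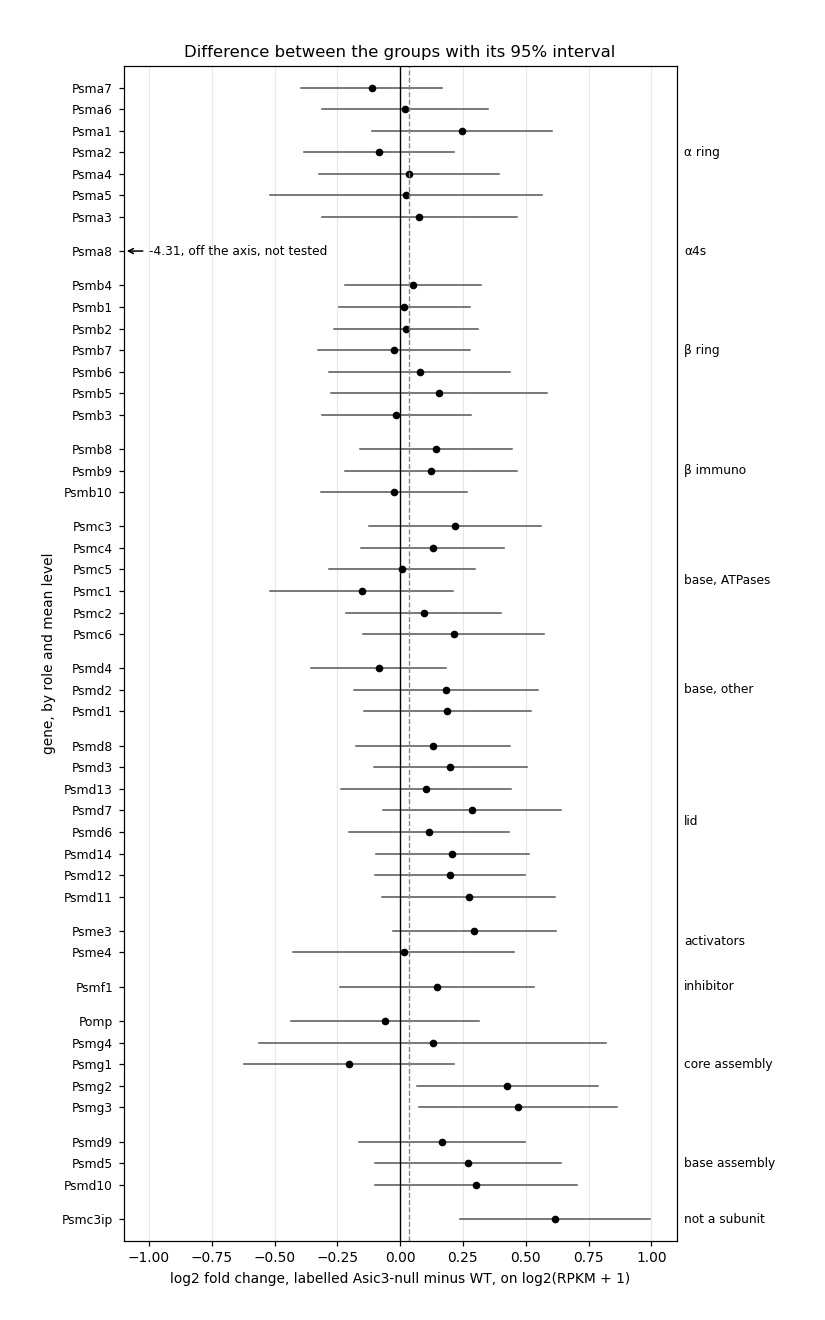
Log2 fold change of the 46 tested members other than Psma8 (points) with limma's 95% interval (lines), by role, with 0 as a solid line and the median of all tested genes (0.03) dashed. The intervals of Psmc3ip, Psmg2 and Psmg3 lie above 0, and Psma8, at -4.31 and without a test, is off the axis.

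In the α ring, which forms the gate of the core, the levels spanned from Psma7 (mean of all libraries 283 RPKM) through Psma6 (243 RPKM), Psma1 (136 RPKM), Psma2 (124 RPKM) and Psma4 (73.1 RPKM) to Psma5 (19.7 RPKM) and Psma3 (13.1 RPKM). Psma3 was at 15.1, 12.6 and 12.8 RPKM under the Asic3-null label and 10.9, 12.9 and 14.4 RPKM in WT. All 7 overlapped between the groups, with log2 fold changes from -0.11 in Psma7 to 0.24 in Psma1 (adjusted p = 0.490 for the latter) and a median of 0.02. A ring holds 1 copy of each α subunit, so the range of levels is one of RNA per length and not of protein. Psma5, Psmb5, Psmb6 and Psmb7 have processed copies in the reference annotation that the table does not list, and their levels are uncertain where reads could have been split.

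The constitutive β ring had means from 89.0 to 319.6 RPKM. Psmb4, a structural subunit, had the highest mean of all members at 319.6 RPKM, with 319, 349 and 308 RPKM under the Asic3-null label and 283, 314 and 345 RPKM in WT. Psmb3 had the lowest of this ring, with 92.8, 96.5 and 76.9 RPKM against 92.4, 83.6 and 91.9 RPKM. Both overlapped between the groups (log2 fold changes of 0.05 and -0.01, adjusted p = 0.869 and 0.974). The structural Psmb1 and Psmb2 lay between them at means of 203 and 163 RPKM, with log2 fold changes of 0.02 and 0.02. The 14 constitutive core subunits together summed to 2067, 2167 and 1908 RPKM under the Asic3-null label and to 1808, 1998 and 2262 RPKM in WT. The span of the WT libraries held all 3 libraries of the other group, and the core took 0.403% ± 0.0141 of all RPKM against 0.395% ± 0.0417 (SD, n = 3).

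Among the catalytic β subunits, Psmb5 (chymotrypsin-like activity) was at 108, 129 and 101 RPKM under the Asic3-null label and 91.7, 83.1 and 134 RPKM in WT. Psmb6 (caspase-like) was at 121, 153 and 117 RPKM against 108, 116 and 146 RPKM, and Psmb7 (trypsin-like) at 122, 146 and 129 RPKM against 117, 143 and 144 RPKM. WT replicate 3 was the highest library for Psmb5, and Asic3-null replicate 2 for Psmb6 and Psmb7, and the groups overlapped in each. Their log2 fold changes were 0.15, 0.08 and -0.02 (adjusted p = 0.738, 0.852 and 0.953, limma).

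The immunosubunits were expressed at levels near those of the subunits they replace or, for Psmb8, above. Psmb8, which takes the place of Psmb5, was at 285, 370.4 and 287 RPKM under the Asic3-null label and 265, 285 and 298 RPKM in WT. Psmb9, in the place of Psmb6, was at 121, 164 and 122 RPKM against 111, 127 and 133 RPKM, and Psmb10, in the place of Psmb7, at 119, 136 and 113 RPKM against 138, 122 and 115 RPKM. Asic3-null replicate 2 was the highest library for Psmb8 and Psmb9, the groups overlapped in all 3 genes, and the log2 fold changes of 0.14, 0.12 and -0.02 were not called (adjusted p = 0.648, 0.740 and 0.949). The thymic Psmb11 had 3 reads over the 6 libraries and was not tested.

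The balance between both forms was then read within each library. Psmb8 was 2.63, 2.87 and 2.84 times the RPKM of Psmb5 under the Asic3-null label and 2.89, 3.42 and 2.22 times in WT. Psmb9 was 1.00, 1.07 and 1.04 times Psmb6 against 1.03, 1.09 and 0.906 times, and Psmb10 was 0.975, 0.930 and 0.880 times Psmb7 against 1.17, 0.851 and 0.800 times. Every library labelled Asic3-null lay inside the range of the WT libraries in all 3 pairs. On the log2 scale the difference of the ratios was -0.01 (SE 0.18), 0.05 (SE 0.08) and -0.00085 (SE 0.18). Exact permutation tests, two-sided, gave p = 0.8, 0.8 and 1 (1 for each after adjustment over the 3 pairs), where 3 libraries against 3 cannot go below 0.1.

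**Figure D4:**
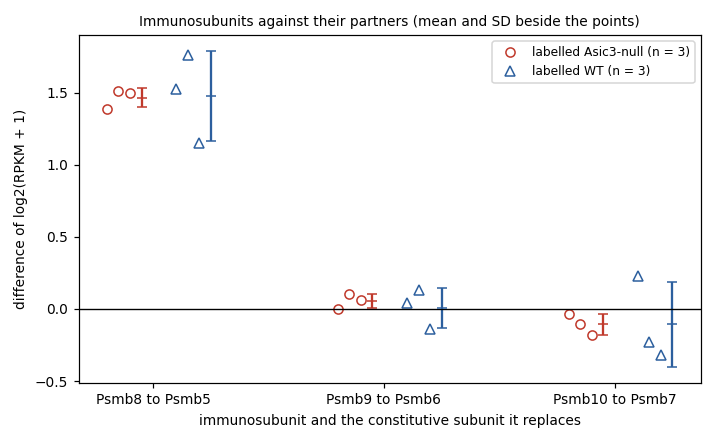
Difference in log2(RPKM + 1) between each immunosubunit and the constitutive subunit it replaces, 1 point per library with the mean and SD beside it, circles for the label Asic3-null and triangles for WT. Psmb8 stands above Psmb5 in all 6 libraries, the other pairs lie near 0, and the groups overlap in each pair.

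The genes named beside the immunosubunits as targets of interferon γ also showed no call: 12 were tested, 0 passed in limma (2 at an unadjusted p under 0.05, and 1 called by limma-voom), and 8 lay above 0 (median log2 fold change 0.11). The shares over all 12037 tested genes were 3.35% called by limma, 4.51% called by limma-voom, 15.9% at an unadjusted p under 0.05 and 54.5% above 0. The lowest p was that of Nlrc5, an activator of MHC class I genes, at 5.72, 5.98 and 5.21 RPKM under the Asic3-null label and 3.01, 2.51 and 2.55 RPKM in WT. Its groups did not overlap, and the log2 fold change of 0.85 (SE 0.20) had an adjusted p of 0.062, with a call under 3 of the alternatives. Irf1 (-0.42, adjusted p = 0.220) lay below 0 without overlap. Psme1 and Psme2, which form the PA28 cap of the immunoproteasome, gave -0.10 and 0.05, and Tap1, Tap2, Tapbp, B2m, H2-K1, H2-D1 and Erap1, which load or form MHC class I, gave values from -0.15 to 0.35.

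Promoter windows of the RefSeq table (GRCm38.p6) were found for 40 of the 48 members, 42 windows in all. A window runs from 250 bases before a start to 50 after it. The motif TGACNNNGC, the core of the element that the proteasome regulator NRF1 binds, was in 6 of 42 (14.3%) beside 12.4% of 32817 windows, counted on both strands. CCAAT was in 15 (35.7%) beside 37.4%, and GGGCGG, an Sp1-type GC box, in 22 (52.4%) beside 35.6%. A match says only that these letters are in the window. TGACNNNGC was found in Psmb5, Psmb6, Psmc6, Psmd9, Psmd12 and Psme4. The 250 bases before the start are printed for 2 active-site subunits that hold it and for Psma7, the subunit set against the testis form, with matches to TGACNNNGC or CCAAT in capitals. In Psmb5 the match covers bases -47 to -39, in Psmb6 -9 to -1, and in Psma7 CCAAT covers -196 to -192. The windows are chr14:54617996-54618245 (minus strand), chr11:70525107-70525356 (plus strand) and chr2:180042465-180042714 (minus strand).
Psmb5: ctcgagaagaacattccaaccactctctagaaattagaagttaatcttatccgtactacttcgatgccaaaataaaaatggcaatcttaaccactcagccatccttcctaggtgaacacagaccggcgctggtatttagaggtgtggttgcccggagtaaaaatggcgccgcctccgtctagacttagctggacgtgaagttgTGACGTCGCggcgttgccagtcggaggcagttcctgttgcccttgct
Psmb6: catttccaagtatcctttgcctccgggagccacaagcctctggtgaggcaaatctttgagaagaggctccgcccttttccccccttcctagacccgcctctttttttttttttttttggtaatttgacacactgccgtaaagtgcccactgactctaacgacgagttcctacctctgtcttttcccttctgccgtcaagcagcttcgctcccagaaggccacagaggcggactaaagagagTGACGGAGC
Psma7: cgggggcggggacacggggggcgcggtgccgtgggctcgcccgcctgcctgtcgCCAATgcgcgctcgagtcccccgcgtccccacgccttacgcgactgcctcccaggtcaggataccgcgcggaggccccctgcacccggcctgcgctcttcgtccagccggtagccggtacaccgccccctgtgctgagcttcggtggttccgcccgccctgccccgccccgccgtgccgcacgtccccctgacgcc

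None of the 17 subunits of the 19S regulatory particle that the symbol rule took in was called, beside 3.35% of all tested genes. A log2 fold change above 0 was found in 15 of the 17, beside 54.5% of all tested genes, with a median of 0.18. Without WT replicate 1 this fell to 13 of 17 and a median of 0.09. In the constitutive core 10 of 14 lay above 0 with a median of 0.02, and without WT replicate 1 the values were 4 of 14 and -0.02. Without Asic3-null replicate 2 they were 6 of 14 and -0.02. The difference between the particle and the core was not tested. The rule left out 2 subunits of the particle, Adrm1 and Sem1, whose log2 fold changes were -0.12 and -0.18. With them 15 of 19 lay above 0, with a median of 0.13. The summed level of the 17 was 1591, 1688 and 1458 RPKM under the Asic3-null label and 1335, 1407 and 1614 RPKM in WT, so the groups overlapped, and their share of all RPKM was 0.310% ± 0.0129 against 0.284% ± 0.0258 (SD, n = 3). With Adrm1 and Sem1 the sum was 2284, 2390.0 and 2021 RPKM against 2065, 2148 and 2348 RPKM, and the groups overlapped as well. The 6 ATPases of the base, which unfold substrates, ranged from Psmc3 at 173, 158 and 137 RPKM against 111, 140.4 and 152 RPKM in WT to Psmc6 at 75.7, 52.3 and 60.2 RPKM against 55.3, 56.2 and 48.9 RPKM. Their log2 fold changes of 0.22 and 0.21 were the highest of the 6 (adjusted p = 0.525 and 0.555). Psmc1 was among the 3 lowest of the tested members other than Psma8: at 67.0, 74.9 and 68.0 RPKM against 62.1, 82.4 and 92.2 RPKM it had a log2 fold change of -0.15 (SE 0.16, adjusted p = 0.689), and its WT libraries spread on both sides of the other group. Psmc2, Psmc4 and Psmc5 gave 0.09, 0.13 and 0.01.

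The 3 other base subunits were the ubiquitin receptor Psmd4 and the scaffolds Psmd1 and Psmd2. Psmd4 was at 133, 139 and 121 RPKM under the Asic3-null label and 131, 135 and 150.1 RPKM in WT (log2 fold change -0.09, adjusted p = 0.774). Psmd1 was at 62.7, 65.4 and 54.5 RPKM against 46.3, 53.0 and 61.2 RPKM (0.19, adjusted p = 0.573), and Psmd2 gave 0.18. All 3 overlapped between the groups.

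In the lid, none of the 8 subunits taken in by the rule passed the test (lowest adjusted p = 0.409, Psmd7), beside 3.35% of all tested genes. All 8 had a log2 fold change above 0, from 0.10 in Psmd13 to 0.29 in Psmd7, beside 54.5% of all tested genes. Without WT replicate 1 the count was 7 of 8, with Psmd6 at -0.0071. Sem1, a lid subunit that the rule left out, was at 666, 678 and 544 RPKM under the Asic3-null label and 705, 715 and 709 RPKM in WT, without overlap, with a log2 fold change of -0.18 (adjusted p = 0.499, limma), so that 8 of 9 lay above 0. Psmd8, the highest in level of the 8, was at 146, 163 and 136 RPKM under the Asic3-null label and 129, 123 and 156 RPKM in WT. Psmd11, the lowest of the 8, was at 23.5, 21.7 and 19.3 RPKM against 18.01, 18.9 and 16.0 RPKM. Its log2 fold change was 0.27 (SE 0.15, adjusted p = 0.421). It was the 1 of the 8 whose groups did not overlap, beside 22.6% of all tested genes (11.2% in that direction). Psmd14, the deubiquitinase of the lid, gave 0.21, and Psmd3, Psmd6 and Psmd12 gave 0.20, 0.12 and 0.20.

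The caps and inhibitor outside the 19S particle were not called either. Psme3 (PA28γ), the nuclear activator, was at 97.9, 111 and 90.7 RPKM under the Asic3-null label and 78.6, 71.9 and 93.7 RPKM in WT, with a log2 fold change of 0.29 (SE 0.14, adjusted p = 0.354). Psme4 (PA200), the cap that developing sperm cells combine with Psma8, was at 13.3, 9.52 and 13.2 RPKM against 10.4, 13.9 and 11.2 RPKM. Its groups overlapped, with a log2 fold change of 0.01 (95% interval -0.43 to 0.46). Psmf1 (PI31) was at 15.5, 18.8 and 15.8 RPKM against 12.6, 15.7 and 16.8 RPKM (0.15, adjusted p = 0.725).

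The 5 chaperones that assemble the core held 2 of the 3 members with an unadjusted p under 0.05, Psmg3 and Psmg2. Over all tested genes the share was 15.9% (6.43% higher under the Asic3-null label), and a concentration in this role was not tested. The 5 also held the lowest log2 fold change among the 46 tested members other than Psma8. Psmg3 was at 38.6, 49.0 and 32.0 RPKM under the Asic3-null label and 26.1, 28.2 and 30.2 RPKM in WT, from 46 to 98 reads a library. Psmg2 was at 38.3, 46.8 and 40.6 RPKM against 33.2, 25.7 and 34.3 RPKM. In both, every library labelled Asic3-null was above every WT library, as in 11.2% of all tested genes. Their log2 fold changes of 0.47 (SE 0.17) and 0.43 (SE 0.16) had adjusted p = 0.233 and 0.234 (limma, unadjusted p = 0.0249 and 0.0254). Psmg1, the partner of Psmg2 in assembling the α ring, went the other way, with 35.1, 41.8 and 26.4 RPKM against 37.7, 36.0 and 44.2 RPKM and a log2 fold change of -0.20 (SE 0.18, adjusted p = 0.633). Psmg4, the partner of Psmg3, spread most among replicates, at 74.2, 128 and 71.6 RPKM against 111, 51.3 and 91.4 RPKM (0.13, SE 0.31). Pomp, which brings the β subunits onto the α ring, was the highest of this group at 154, 197 and 159 RPKM against 143, 187 and 205 RPKM, with a log2 fold change of -0.06 (adjusted p = 0.894).

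The chaperones of the 19S base all lay above 0, beside 54.5% of all tested genes, and overlapped between the groups. Psmd9 (p27), the highest, was at 32.2, 27.2 and 29.6 RPKM under the Asic3-null label and 23.3, 28.1 and 27.5 RPKM in WT (log2 fold change 0.17, adjusted p = 0.620). Psmd10 (gankyrin), the lowest and X-linked, was at 20.8, 23.9 and 24.9 RPKM against 18.6, 15.2 and 22.6 RPKM (0.30, SE 0.18, adjusted p = 0.445). Psmd5 gave 0.27.

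Psmc3ip had the highest log2 fold change of the 46, and it is the 1 member that is no proteasome gene. Its name matches the rule, but the protein (HOP2) works in meiotic recombination with DMC1. It was at 38.2, 44.5 and 35.0 RPKM under the Asic3-null label and 23.5, 22.2 and 30.4 RPKM in WT, from 80 to 103 reads a library against 42 to 70. The lowest library of the first group lay above the highest of the second. The log2 fold change of 0.62 (SE 0.17, 95% interval 0.24 to 1.00) had an adjusted p of 0.0990 (limma, unadjusted p = 0.00511), and its adjusted p ran from 0.0718 to 0.259 over the alternatives.

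Genes that work with the proteasome were read as 3 further lists, beside shares over all tested genes of 3.35% called by limma, 4.51% called by limma-voom, 15.9% at an unadjusted p under 0.05 and 54.5% above 0. Of 14 proteasome-associated genes 13 were matched to the table and tested, and 0 were called by limma (1 at an unadjusted p under 0.05, and 1 called by limma-voom), with 10 above 0 and a median log2 fold change of 0.17. The lowest p was that of Ecpas, a scaffold bound to the proteasome, which the table lists as AI314180. It was at 54.3, 42.5 and 64.6 RPKM under the Asic3-null label and 28.1, 34.4 and 30.3 RPKM in WT, without overlap, and its log2 fold change of 0.76 (SE 0.18) had an adjusted p of 0.053, with a call under 3 alternatives. The ubiquitin receptor Adrm1, the lid component Sem1 (listed as Shfm1), and the deubiquitinases Uchl5 and Usp14 gave -0.12, -0.18, 0.17 and 0.26. Of 8 genes around NRF1 (Nfe2l1), the factor that raises proteasome genes when the protease is inhibited, 0 were called by limma or limma-voom, 1 had an unadjusted p under 0.05, and 4 lay above 0. Nfe2l1 itself had the lowest p, with 33.5, 33.8 and 32.1 RPKM against 20.4, 21.7 and 27.8 RPKM, no overlap, and a log2 fold change of 0.50 (SE 0.15, adjusted p = 0.147). Of 8 ubiquitin and E1 genes 0 were called by limma or limma-voom and 0 had an unadjusted p under 0.05, with a median of 0.07.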

How the data were processed

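The deposited table holds 1 RPKM value per gene and library for 6 libraries made with the TruSeq RNA v2 kit. The authors made the RPKM values from reads that, per the submitters' processing notes, went through CASAVA 1.8.2 and TopHat2 2.0.12 with the GRCm38 build. The counting tool, the annotation, the use of strand and the library sizes were not given in the sources used here. All 16825 genes above 0 gave whole reads within 0.0001 of a read once the steps between low values were taken as 1 read. Gene lengths were recovered from the same values, so this check says little for a gene read in 1 library. Counts and lengths of a gene are known only up to a common factor, and the smallest that fit are given. PCR duplicates are counted in these reads, so intervals and limits cover counting error only. Symbols came from RefSeq (GRCm38.p6), matched by Entrez identifier for 25275 of 27179 rows.

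The members and the gene lists were chosen with earlier results of these data known. The groups were compared with limma 3.58.1 (R 4.3.3), a moderated test with an intensity trend on log2(RPKM + 1), over the 12037 genes with a mean of at least 1 RPKM. Adjustment was Benjamini-Hochberg over all of them, with a threshold of 0.05, and the code was tested on simulated data. Fold changes on this scale understate those of low genes. Psma8 was not tested because its values chose it. Other tests and intervals used Python 3.11.15 (scipy 1.17.1).

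Every member was named at least once. Values per library were given for Psma8, Psma7, the immunosubunits and their partners, the 3 members with the highest and the 3 with the lowest fold change, and the highest and lowest member of each role by mean RPKM. Of the pathway lists, the rule named the gene with the lowest p. A few genes under these rules are not reported here. Beside Psma8 it named the 2 nearest genes on each side and the 10 other genes without a read under the Asic3-null label that had the highest WT mean. The remaining list genes, 1700030C10Rik and Maoa were named after their values were seen. Promoter windows were reference sequence, and Psma8, Psmb1, Psmb2, Psmb7, Psmc3, Psmd3, Psmd7 and Psmg2 had none. Alternatives were a pseudocount of 0.1, no filter, a filter at 5 RPKM, median-ratio scaling, quantile normalization, no trend, the replicate number as a block, limma-voom on recovered reads, and each library left out.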

Additional observations from a re-analysis of the deposited data

How the results depend on the processing

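The count of called members other than Psma8 was 0 in each direction under all 14 alternatives. Their median log2 fold change lay between 0.11 and 0.14 under pseudocount, filter, scaling, trend, block and limma-voom alternatives, and between 0.05 (without WT replicate 1) and 0.20 (without WT replicate 3) when 1 library was left out. Over all genes the fits called 403, and from 203 to 293 with 1 library left out, 288 with no filter on low values and 543 by limma-voom on recovered reads. The pathway lists gained a call under some alternatives: 1 proteasome-associated gene, Ecpas, with a mean RPKM of at least 5, with limma-voom and without Asic3-null replicate 2 (0 to 1 over the libraries left out), and 1 interferon γ gene, Nlrc5, with quantile normalization, without the intensity trend and with limma-voom. The Psma8 share of the α4 signal in WT was 6.05% by RPKM and 11.0% by recovered reads, which are not divided by length. The log2 fold change of Psma8 was -7.57 with a pseudocount of 0.1 and -7.24 with limma-voom, since a gene at 0 follows the pseudocount. For the replicate block, libraries with the same number did not deviate together (correlations of 0.059, -0.059 and -0.123), so the numbers were not taken to pair libraries, and with the block 0 members and 246 genes in all were called, with a member median of 0.13. With 3 libraries a group, the standard errors of the tested members other than Psma8 were 0.12 to 0.31 on the log2 scale, which limits how small a difference could be detected. Each arm left with 2 libraries borrowed its spread from both groups.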
